A study of Mus musculus with 12 samples.

Results

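The mammalian circadian clock is a feedback loop of transcription. The factors BMAL1 (gene Arntl) and CLOCK, or its relative NPAS2, bind E-box sequences and drive their own repressors. PER and CRY proteins then accumulate and shut BMAL1 and CLOCK down until they are degraded, and casein kinases set the pace of that degradation. Described here are 10 genes of this repressive arm, out of the 41388 genes counted in every library. They are the period genes Per1, Per2 and Per3, the cryptochromes Cry1 and Cry2, the further repressors Ciart (CHRONO), Bhlhe40 (DEC1) and Bhlhe41 (DEC2), and the casein kinase genes Csnk1d and Csnk1e, whose enzymes phosphorylate PER proteins. The members were a fixed list of symbols matched to Ensembl identifiers, and all 10 passed the filter on low counts in each comparison.

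The study sequenced 12 libraries from the brains of 8 mice. All animals carried floxed Bmal1 on a C57BL\6 background, and the strain label reads Bmal fl/fl; ALDH1L1-CreERT2. Every animal, Cre-positive or Cre-negative, received tamoxifen by gavage at 2 months of age (2 mg a day for 5 days), was kept on a 12-h light and 12-h dark cycle, and gave its brain at 7 months. The Aldh1l1 promoter, which is active in astrocytes, drives the Cre, so deletion was aimed at those cells. Beads against ACSA-2, an epitope of the astrocyte surface protein ATP1B2, retained the astrocytes, and the unretained brain cells are the flowthrough. Astrocytes came from 5 Cre-positive animals labelled knockout (aKO, numbers 203, 205, 208, 221 and 222) and 3 Cre-negative animals labelled wild type (WT, numbers 201, 202 and 265). Flowthrough came from aKO 203 and 205 and from WT 201 and 202, so 4 animals gave both fractions. The astrocyte library of animal 202 has a WT title but a genotype field that says knockout, so it was treated as WT and, as an alternative, as aKO. In that alternative the flowthrough library of animal 202 kept its WT label. Fits of both fractions then hold this animal under both genotypes. The flowthrough titles end in a letter b that the labels do not explain, so what it marks cannot be told apart from the fraction. The sources used here do not give the hour at which brains were taken, and transcripts of most of these genes are known to rise and fall over the day; the part of collection hour in the values below was not tested.

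Total counts ranged from 21816637 to 62655238 in astrocyte libraries and from 33019572 to 53868165 in flowthrough, and the repressor genes had between 58 and 7652 counts in a library. Mitochondrially encoded genes took 11.1% to 36.5% of counts in astrocytes and 4.81% to 12.9% in flowthrough. Libraries aKO 222 and WT 265 stood apart from the other astrocyte libraries on the first principal component (34.2% of the variance). Xist had 2044 and 972 counts in astrocyte libraries aKO 221 and 222, and 6 to 46 counts in the other libraries. High Xist was thus seen in aKO astrocyte libraries and in no WT library. Fits were also run without aKO 221 and 222, and the part of this imbalance in the genotype comparisons was not tested. Of 12 astrocyte markers, 10 were higher in astrocytes than in flowthrough and none was lower, while all 12 microglial markers were lower. The 12 astrocyte markers summed to between 3248 and 16353 CPM in astrocyte libraries and between 328 and 4969 CPM in flowthrough. Oligodendrocyte markers were also higher in astrocytes (10 of 12), with sums of 3924 to 20311 CPM against 1032 to 6384 CPM in flowthrough. CPM here are counts scaled to a common library size with TMM factors (a correction for library composition).

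Arntl, the targeted gene, was not lower in the libraries labelled aKO. It had 9.44, 17.5, 8.78, 10.9 and 5.91 CPM in the astrocyte libraries aKO 203, 205, 208, 221 and 222, against 2.99, 7.52 and 2.23 CPM in WT 201, 202 and 265. Only aKO 222 lay below the highest WT library, which was 202, the library whose genotype field says knockout. The log2 fold change was 1.33 (SE 0.47), which did not pass the threshold of 0.05 (adjusted p = 0.9997 by the edgeR quasi-likelihood test, Benjamini-Hochberg adjusted). Counts cover all exons of the gene together, so a transcript that lacks only the floxed part would still be counted, and the files do not check the genotype labels. Every direction below is between libraries labelled aKO and libraries labelled WT.

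Promoters are shown first because E-boxes are the elements through which BMAL1 acts on these genes, and D-boxes (bound by DBP, TEF and HLF, themselves clock outputs) are a further clock element. RefSeq (GRCm38.p6) entries matched 7 of the 10 genes, with 11 start sites; Per2, Bhlhe40 and Csnk1d are named only. In the 250 bases before each start, the E-box CACGTG, the variant E'-box CACGTT, the D-box TTATGTAA and the cAMP response element TGACGTCA were searched on both strands. The E-box and its variant differ in their last letter and cannot match at the same place. An E-box was found for 4 of the 7 genes, at 4 of 11 start sites, and it was in 6.02% of 32851 mouse promoter entries of that length. The 5 promoters with an E-box or a D-box are given 5′ to 3′ on the gene's own strand, with the matched motifs in capitals. Ciart lies at chr3:95882229-95882478 (minus strand), Cry1 at chr10:85185055-85185304 (minus), Per1 at chr11:69098699-69098948 (plus, the more upstream of its start sites), Bhlhe41 at chr6:145865421-145865670 (minus) and Per3 at chr4:151044666-151044915 (minus).
Ciart: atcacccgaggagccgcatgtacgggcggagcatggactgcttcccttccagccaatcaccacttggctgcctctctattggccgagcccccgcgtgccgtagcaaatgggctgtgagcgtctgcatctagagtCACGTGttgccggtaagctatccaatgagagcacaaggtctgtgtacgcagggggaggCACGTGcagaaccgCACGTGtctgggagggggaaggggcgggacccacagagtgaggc
Cry1: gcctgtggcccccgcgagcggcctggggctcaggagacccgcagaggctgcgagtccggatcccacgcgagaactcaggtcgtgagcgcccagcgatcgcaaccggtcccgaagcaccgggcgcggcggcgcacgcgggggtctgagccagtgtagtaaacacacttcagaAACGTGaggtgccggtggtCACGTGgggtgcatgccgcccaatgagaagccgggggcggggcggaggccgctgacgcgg
Per1: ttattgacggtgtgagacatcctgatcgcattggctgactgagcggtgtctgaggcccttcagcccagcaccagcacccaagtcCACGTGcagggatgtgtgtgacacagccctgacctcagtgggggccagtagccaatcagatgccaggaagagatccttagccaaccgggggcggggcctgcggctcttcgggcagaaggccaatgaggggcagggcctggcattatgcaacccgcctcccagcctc
Bhlhe41: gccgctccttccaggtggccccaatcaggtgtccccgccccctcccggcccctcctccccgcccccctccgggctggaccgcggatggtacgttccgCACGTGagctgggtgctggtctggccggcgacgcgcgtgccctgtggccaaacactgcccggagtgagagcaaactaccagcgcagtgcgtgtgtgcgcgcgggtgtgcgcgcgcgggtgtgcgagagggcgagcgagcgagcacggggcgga
Per3: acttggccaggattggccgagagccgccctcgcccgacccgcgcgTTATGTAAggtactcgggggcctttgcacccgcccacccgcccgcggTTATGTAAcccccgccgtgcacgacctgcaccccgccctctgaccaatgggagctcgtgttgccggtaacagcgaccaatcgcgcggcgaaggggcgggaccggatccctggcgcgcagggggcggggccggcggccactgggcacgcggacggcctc

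Ciart held 3 E-boxes, whose first bases lie 116, 58 and 44 bases before the start. Cry1 held 1 E-box at 60 bases and an E'-box, read on the opposite strand as AACGTG, at 79 bases. Per1 held an E-box at 166 bases and Bhlhe41 at 153 bases, and Cry2, not printed, held an E'-box at 166 bases. Per3 held no E-box in this window but 2 D-boxes, at 205 and 158 bases, a motif present in 0.819% of the promoter entries. The E'-box was in 3.85% of entries. No printed or matched window held the cAMP response element, which was in 1.55% of entries. These matches describe the letters in the windows and not binding in these cells.

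To compare levels between genes, the deposited RPKM (the authors' counts scaled to library size and to exon length) were ordered. In astrocytes the 3 non-PER, non-CRY repressors led, with means of 15.03 RPKM for Bhlhe40, 12.6 RPKM for Bhlhe41 and 12.1 RPKM for Ciart (SD 9.17, 9.45 and 5.50, n = 8 each). Bhlhe40 exceeded Bhlhe41 in 5 of 8 libraries, and Bhlhe41 exceeded Ciart in 3 of 8, so these 3 were not ordered beyond their spread. Csnk1d followed at 6.70 ± 2.36 RPKM (SD, n = 8). Per3 (4.59 ± 3.72), Cry2 (4.17 ± 2.22) and Cry1 (3.90 ± 1.74 RPKM, SD, n = 8 each) formed the next step, and Per3 exceeded Cry2 in only 2 of 8 libraries, its mean being raised by WT 201 at 12.7 RPKM. Csnk1e (2.74 ± 0.956), Per1 (2.20 ± 1.36) and Per2 (1.71 ± 1.19 RPKM, SD, n = 8 each) were lowest, and Per1 exceeded Per2 in 7 of 8 libraries.

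In flowthrough the order of the means was another. Ciart (8.12 ± 5.32), Csnk1e (6.62 ± 1.90), Csnk1d (6.46 ± 0.670), Bhlhe40 (5.94 ± 5.43) and Bhlhe41 (4.73 ± 2.34 RPKM, SD, n = 4 each) came first, each above the next in 3 of 4 libraries. Per1 (3.08 ± 1.47) exceeded Cry1 (1.57 ± 0.361 RPKM, SD, n = 4 each) in all 4 libraries. Cry2 at 1.43, Per3 at 1.41 and Per2 at 0.716 RPKM closed the order. Csnk1e thus stood second in flowthrough and eighth in astrocytes by level per length.

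**Figure D1:**
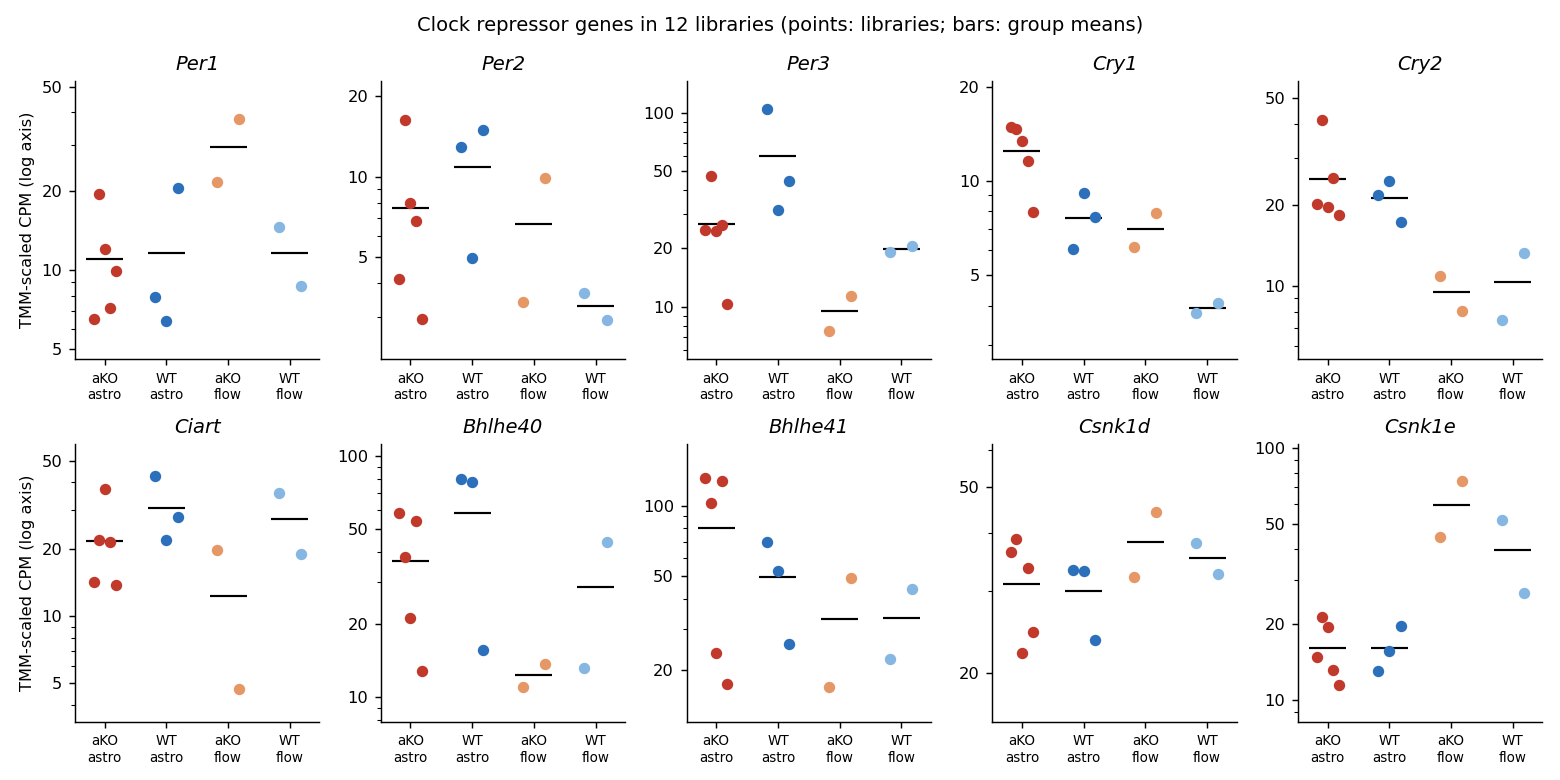
Level of each clock repressor gene in every library, in TMM-scaled CPM on a log axis, with points for libraries and bars for group means (aKO astrocytes n = 5, WT astrocytes n = 3, aKO flowthrough n = 2, WT flowthrough n = 2). The astrocyte groups overlap for all 10 genes, and Csnk1e is lower and Cry2 higher in every astrocyte library than in every flowthrough library.

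The first comparison asks whether Bmal1 deletion aimed at astrocytes changes the repressor genes in the isolated astrocytes. None of the 10 passed the threshold between aKO and WT astrocytes, against 0.0264% of 18950 genes tested (5 genes, 0.0211% higher and 0.00528% lower). At an unadjusted p under 0.05 there was 1 of 10 (Per3), against 1.58% of all genes, and DESeq2 and limma voom also called 0 of 10. The aKO and WT libraries overlapped for all 10 genes, whereas the groups were separate for 1.47% of all genes. The fold changes lay above 0 for 4 genes and below 0 for 6, with a median log2 fold change of -0.06, beside 0.02 over all genes tested.

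Among the period genes, Per3 had the lowest fold change. Per3, a period gene that is dispensable for rhythms in mice, had 24.9, 47.4, 24.5, 26.5 and 10.3 CPM in astrocytes of aKO 203, 205, 208, 221 and 222, against 104, 31.7 and 44.4 CPM in WT 201, 202 and 265. All aKO libraries but 205 lay below every WT library. The log2 fold change was -1.15 (SE 0.46, unadjusted p = 0.0233, adjusted p = 0.9997 by edgeR's quasi-likelihood test), and without WT 201 it was -0.51. Per2, a core repressor, had 4.14, 16.2, 7.97, 6.84 and 2.95 CPM in aKO, against 12.9, 4.95 and 14.9 CPM in WT, a log2 fold change of -0.52 (SE 0.51). Its highest library was aKO 205 and its lowest aKO 222, so the WT libraries lay inside the aKO range. The value was -0.99 without aKO 205 and -0.16 without WT 265. Per1, which is also induced within minutes by many stimuli, had 6.50, 19.5, 12.0, 7.16 and 9.93 CPM in aKO, against 7.89, 6.43 and 20.7 CPM in WT. Its log2 fold change of -0.11 (SE 0.47) was 0.68 without WT 265, its highest library.

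The cryptochromes lay on the other side of 0. Cry1, the stronger repressor of the pair and a target of REV-ERB repression, had 14.9, 14.7, 13.4, 11.6 and 7.95 CPM in aKO astrocytes, against 6.04, 9.14 and 7.69 CPM in WT. It exceeded every WT library in 4 of 5 aKO libraries, and aKO 222 was the exception. The log2 fold change was 0.71 (SE 0.34, 95% interval -0.02 to 1.44, adjusted p = 0.9997 by edgeR). Cry2 had 20.2, 41.4, 19.7, 25.3 and 18.3 CPM in aKO, against 21.9, 24.6 and 17.3 CPM in WT, a log2 fold change of 0.25 (SE 0.35) that was -0.02 without aKO 205, its highest library.

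The remaining repressors had wide ranges within each genotype. Ciart, which binds and represses the BMAL1 and CLOCK pair, had 14.3, 22.0, 37.4, 21.5 and 13.8 CPM in aKO, against 42.7, 22.0 and 27.9 CPM in WT (log2 fold change -0.50, SE 0.37). Bhlhe40, a competitor of BMAL1 and CLOCK for E-boxes, had 58.3, 38.0, 21.2, 53.8 and 12.8 CPM in aKO, against 80.5, 78.4 and 15.7 CPM in WT (log2 fold change -0.63, SE 0.52). Bhlhe41, its paralog, had 131, 103, 23.6, 127 and 17.4 CPM in aKO, against 70.2, 52.9 and 25.9 CPM in WT (log2 fold change 0.71, SE 0.61). Libraries aKO 208, aKO 222 and WT 265 were the lowest 3 for both of these paralogs. Single libraries moved these values: Ciart was -0.78 without aKO 208 and -0.20 without WT 201, Bhlhe40 -1.07 without WT 265 and -0.35 without WT 201, and Bhlhe41 0.43 without WT 265. With library 202 counted as aKO, Bhlhe40 was -0.12. The kinase genes had the smallest fold changes, 0.06 (SE 0.32, 95% interval -0.62 to 0.74) for Csnk1d and -0.02 (SE 0.33, 95% interval -0.72 to 0.69) for Csnk1e. Csnk1d had 36.3, 38.7, 22.1, 33.6 and 24.5 CPM in aKO, against 33.2, 33.2 and 23.6 CPM in WT, and Csnk1e had 14.9, 21.4, 19.5, 13.1 and 11.5 CPM in aKO, against 13.0, 15.6 and 19.7 CPM in WT. The WT libraries lay inside the aKO range for both kinase genes.

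**Figure D2:**
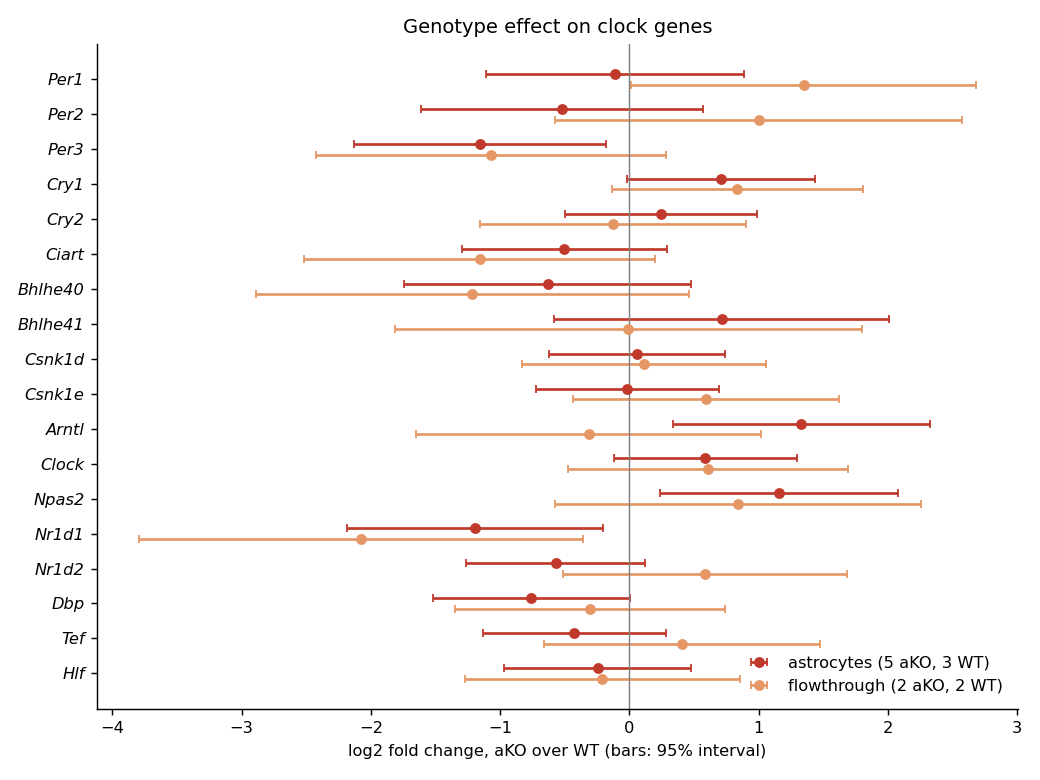
Log2 fold change of aKO over WT for the 10 repressor genes and 8 other clock genes, in astrocytes (red, 5 aKO and 3 WT) and in flowthrough (orange, 2 aKO and 2 WT), with 95% intervals from the edgeR fits. No point passed the adjusted threshold, Per3 lies below 0 and Cry1 above 0 in both fractions, and Per1 and Per2 lie below 0 in astrocytes (-0.11 and -0.52) and above 0 in flowthrough (1.35 and 0.9997), a difference that missed the threshold.

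The other clock genes give the setting. Of 30 further clock genes in 4 lists, 0 passed the threshold between aKO and WT astrocytes by edgeR and 3 had an unadjusted p under 0.05. All 4 activator genes had fold changes above 0, led by Arntl and by Npas2, the CLOCK relative, with a log2 fold change of 1.16 (SE 0.43). Of 6 genes of the REV-ERB and ROR loop, 5 were below 0, led by Nr1d1, which encodes the repressor REV-ERBα, at -1.19 (SE 0.46), and Nr1d2 at -0.57 (SE 0.33). All 3 PAR bZIP genes, whose proteins bind D-boxes, were below 0, with Dbp at -0.76 (SE 0.36) and Tef next by p. Of 17 regulators of PER and CRY proteins, 8 were above 0 and 9 below, and Sfpq and Usp2 had the smallest p. The adjusted p of every one of these genes was above 0.05 by edgeR's quasi-likelihood test. Markers of other cell types also lay on 1 side of 0 in this comparison, none of them passing the threshold by edgeR. All 12 oligodendrocyte markers were above 0 (median log2 fold change 0.86), with summed levels of 4442 to 20311 CPM in aKO and 3924 to 14159 CPM in WT. All 11 endothelial markers were above 0 (median 0.41), with 557 to 1327 CPM in aKO and 454 to 790.4 CPM in WT. All 10 ependymal markers were below 0 (median -0.71), with 410.4 to 1389 CPM in aKO and 609 to 2222 CPM in WT, and all 7 choroid plexus markers were below 0 (median -0.27), with 15004 to 103735 CPM in aKO and 13480.5 to 179013 CPM in WT. Their part in the values of the clock genes was not tested.

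In flowthrough, 0 of 10 repressor genes passed the threshold between aKO and WT, as for all 20637 genes tested (percent called 0). At an unadjusted p under 0.05 there was 1 of 10 (Per1), against 3.96% of all genes, and DESeq2 called none of the 10. Groups did not overlap for 3 of 10 genes, 2 higher and 1 lower in aKO, against 33.6% of all genes (20.0% higher and 13.6% lower) in this comparison of 2 with 2 libraries. Per1 had 21.7 and 37.6 CPM in aKO 203 and 205, against 14.6 and 8.69 CPM in WT 201 and 202, with a log2 fold change of 1.35 (SE 0.63, unadjusted p = 0.0477, adjusted p = 0.804 by edgeR). The summed level of 15 immediate early genes, the class to which the stimulus response of Per1 belongs, was 953 and 1786 CPM in the same aKO libraries, against 947 and 805 CPM in the WT libraries. The flowthrough library highest in Per1 was thus the highest in immediate early genes, whereas aKO 203 and WT 201 had near-equal sums and different Per1 values. Among astrocyte libraries, Per1 was highest in WT 265 (20.7 CPM, sum 270 CPM). The highest astrocyte sum was in WT 201 (456 CPM), where Per1 was 7.89 CPM. The part of immediate early genes in the flowthrough difference of Per1 was not tested.

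Per2 had 3.40 and 9.85 CPM in aKO flowthrough, against 3.68 and 2.92 CPM in WT flowthrough (log2 fold change 0.9997, SE 0.74). Only aKO 205 lay above the WT libraries, and without it the log2 fold change was -0.03. Cry1 had 6.14 and 7.88 CPM in aKO, against 3.78 and 4.07 CPM in WT (log2 fold change 0.83, SE 0.46). Per3 had 7.52 and 11.4 CPM in aKO, against 19.1 and 20.7 CPM in WT (log2 fold change -1.07, SE 0.64). These 2 genes had separate groups in flowthrough. Ciart had 19.9 and 4.70 CPM in aKO, against 35.8 and 19.2 CPM in WT (log2 fold change -1.16, SE 0.64), and Bhlhe40 had 11.02 and 13.6 CPM in aKO, against 13.1 and 44.0 CPM in WT (log2 fold change -1.21, SE 0.79). For Ciart it was -2.59 without aKO 203 and -0.55 without aKO 205. WT 202 was the highest library for Bhlhe40, and without it the log2 fold change was -0.10, against -1.90 without WT 201. Cry2, Bhlhe41, Csnk1d and Csnk1e had log2 fold changes of -0.13, -0.01, 0.11 and 0.59. Of the other 30 clock genes 0 passed the threshold by edgeR, and Nr1d1, at -2.08 (SE 0.81), was the 1 with an unadjusted p under 0.05. Nr1d1 had 12.6 and 10.2 CPM in aKO 203 and 205, against 13.4 and 82.5 CPM in WT 201 and 202, so only WT 202 stood apart. The 12 astrocyte markers were all below 0 in this comparison (median log2 fold change -1.26), and their sum was highest in WT 202 (4969 CPM). The choroid plexus marker Ttr took 18.1% and 32.1% of counts in flowthrough aKO 203 and 205, against 19.8% and 8.17% in WT 201 and 202. The part of either in these values was not tested.

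Whether the genotype effect differed between the fractions was tested as an interaction. It passed the threshold for 0 of 10 repressor genes and for 0 of 20637 genes (percent called 0), with 0 of 10 and 2.42% at an unadjusted p under 0.05. The largest differences were those of Per2, -1.51 (SE 0.91), and Per1, -1.42 (SE 0.77), effect in astrocytes minus effect in flowthrough, both with an adjusted p of 0.956 by edgeR's quasi-likelihood test. That of Per2 was -0.44 without flowthrough aKO 205 and -2.01 without flowthrough aKO 203, and that of Per1 was -0.66 without astrocyte WT 265. The 95% interval of the difference for Cry1 was -1.31 to 1.07 and for Per3 -1.76 to 1.56. At this spread a difference of the size of either gene's genotype effect could not be detected.

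Between the fractions themselves the repressor genes differed. Of the 10, 3 were higher in astrocytes (Per3, Cry1 and Cry2) and 1 was lower (Csnk1e), so 4 of 10 passed the threshold, against 17.0% of 20637 genes tested. At an unadjusted p under 0.05 there were 5 of 10, against 32.0% of all genes. Higher and lower calls each made up 8.52% of all genes. The median log2 fold change of the 10 was 0.91, beside 0.07 over all genes tested. In bulk RNA, fewer cells of a type and less RNA per cell cannot be told apart. The summed level of microglial markers was 384 to 693 CPM in astrocyte libraries and 9121 to 13915 CPM in flowthrough, and its part in these differences was not tested.

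Csnk1e, the kinase gene CK1ε, had 11.5 to 21.4 CPM in the 8 astrocyte libraries (median 15.3), against 26.6 to 74.4 CPM in the 4 flowthrough libraries (median 48.2). Every astrocyte library lay below every flowthrough library, a separation found in the same direction for 5.93% of all genes. The log2 fold change was -1.58 (SE 0.29, adjusted p = 0.00132 by edgeR's quasi-likelihood test), and it passed in all 21 alternatives. Its relative Csnk1d, with 22.1 to 38.7 CPM in astrocytes (median 33.2) and 32.1 to 44.2 CPM in flowthrough (median 35.3), had a log2 fold change of -0.27 (SE 0.27, 95% interval -0.84 to 0.31). The kinase genes were not compared with each other by a test.

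Cry2 had 17.3 to 41.4 CPM in astrocytes (median 21.1), against 7.48 to 13.3 CPM in flowthrough (median 9.48), and the fractions did not overlap (higher without overlap, 5.01% of all genes). Its log2 fold change was 1.22 (SE 0.32, adjusted p = 0.0143 by edgeR). Per3 had 10.3 to 104 CPM in astrocytes (median 29.1), against 7.52 to 20.7 CPM in flowthrough (median 15.3), and only aKO 222 fell inside the flowthrough range. Its log2 fold change was 1.55 (SE 0.42, adjusted p = 0.0178 by edgeR). Cry1 had 6.04 to 14.9 CPM in astrocytes (median 10.4), against 3.78 to 7.88 CPM in flowthrough (median 5.10), with a log2 fold change of 0.90 (SE 0.29, adjusted p = 0.0441 by edgeR). Cry1 passed in only 6 of 21 alternatives and fell out, among others, with DESeq2's size factors (adjusted p = 0.0521 by edgeR). Per3 did not pass without flowthrough WT 201 or flowthrough aKO 203 (adjusted p = 0.0857 and 0.0766 by edgeR), nor Cry2 without flowthrough WT 201 or flowthrough aKO 205 (adjusted p = 0.116 and 0.0759 by edgeR).

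Bhlhe40 averaged 44.8 ± 27.1 CPM in astrocytes (SD, n = 8) and 20.4 ± 15.7 CPM in flowthrough (SD, n = 4), a log2 fold change of 1.30 (SE 0.51) with an adjusted p of 0.0891 by edgeR. Per2 at 0.97 (SE 0.47), Bhlhe41 at 0.93 (SE 0.55), Ciart at 0.50 (SE 0.40) and Per1 at -0.71 (SE 0.38) also missed the threshold. The flowthrough values of Per1 spanned 8.69 to 37.6 CPM and those of astrocytes 6.43 to 20.7 CPM.

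The fractions were also compared within animals. In the 4 animals with both fractions, Per1 was lower in astrocytes in every animal, with log2 ratios of -1.73 and -0.95 in aKO 203 and 205 and -0.88 and -0.43 in WT 201 and 202. Csnk1e was also lower in all 4, at -1.57 and -1.79 in aKO and -1.99 and -0.77 in WT. Per2, Per3, Cry1, Cry2, Bhlhe40 and Bhlhe41 were higher in all 4 animals, Ciart in 3 and Csnk1d in 2. The share of all genes with the same direction in all 4 animals was not counted, so these counts are a description only. Bhlhe40 had ratios of 2.40 and 1.48 in aKO and 2.61 and 0.83 in WT. In a fit of these 8 libraries with the animal as a block, 7 of 10 repressor genes passed the threshold, the additional 3 being Per1 at -0.98 (adjusted p = 0.0250), Bhlhe40 at 1.85 (adjusted p = 0.00544) and Bhlhe41 at 1.497 (adjusted p = 0.0220, all by edgeR). That fit called 5951 of 20189 genes, and without the block the same 8 libraries gave 5 of 10 and 3562.

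**Figure D3:**
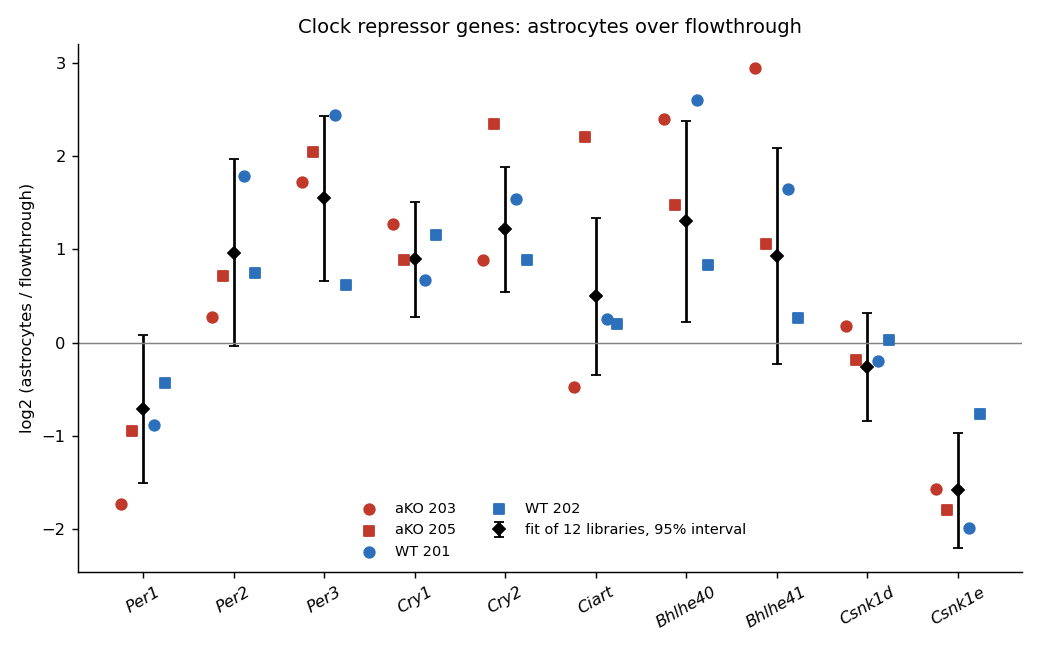
Log2 ratio of astrocytes over flowthrough for the 10 repressor genes, in the 4 animals with both fractions (red aKO, blue WT) and as fitted over all 12 libraries (black, 95% interval). Per1 and Csnk1e lie below 0 in all 4 animals, and Per2, Per3, Cry1, Cry2, Bhlhe40 and Bhlhe41 lie above 0 in all 4. The share of all genes on the same side of 0 in all 4 animals was not counted.

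Of the other 30 clock genes, 5 were higher in astrocytes and 0 lower by edgeR's quasi-likelihood test. Of all 20637 genes tested, 17.0% passed, 8.52% higher and 8.52% lower. The 5 clock genes were Rorb (log2 fold change 3.16, SE 0.59) and Rora (1.60, SE 0.38), whose nuclear receptors activate Arntl, Npas2 (1.73, SE 0.44), the D-box factor gene Hlf (1.24, SE 0.33), and Cipc (1.08, SE 0.30), whose product inhibits CLOCK. Arntl itself, at 0.95 (SE 0.40), missed the threshold. Immediate early genes lay on the side of Per1: 8 of 15 were lower in astrocytes and 1 was higher, with summed levels of 226 to 456 CPM in astrocytes and 805 to 1786 CPM in flowthrough. Their part in the Per1 values was not tested.

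How the repressor genes moved together was examined over the 8 astrocyte libraries, for the 45 pairs of members and the 10 pairs with Arntl. Of the 45 pairs, 33 had a positive Pearson r. No pair passed after adjustment over the 55 (exact permutation test, two-sided), and 8 had an unadjusted p under 0.05. Cry1 and Arntl had r = 0.853 (exact permutation p = 0.00481, adjusted p = 0.136) and Spearman's rho = 0.857 (exact p = 0.0107, adjusted p = 0.295). Without the 2 farthest libraries r was 0.845, and on deviations from genotype means it was 0.668 (exact permutation within genotypes, p = 0.0986, adjusted p = 0.465). Per2 and Per3 had r = 0.809 (exact permutation p = 0.00957, adjusted p = 0.176), rho = 0.762 (exact p = 0.0368, adjusted p = 0.481), 0.696 without the 2 farthest libraries and 0.803 on deviations from genotype means (exact permutation within genotypes, p = 0.0472, adjusted p = 0.465). Per2 and Per3 had r of -0.20 and -0.33 with Arntl. For Bhlhe41 and Csnk1d the libraries formed separate clusters, with aKO 208, aKO 222 and WT 265 low in both genes (17.4 to 25.9 CPM and 22.1 to 24.5 CPM) and the other 5 high. No r over all 8 libraries is therefore given for this pair, which is counted among the 55.

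**Figure D4:**
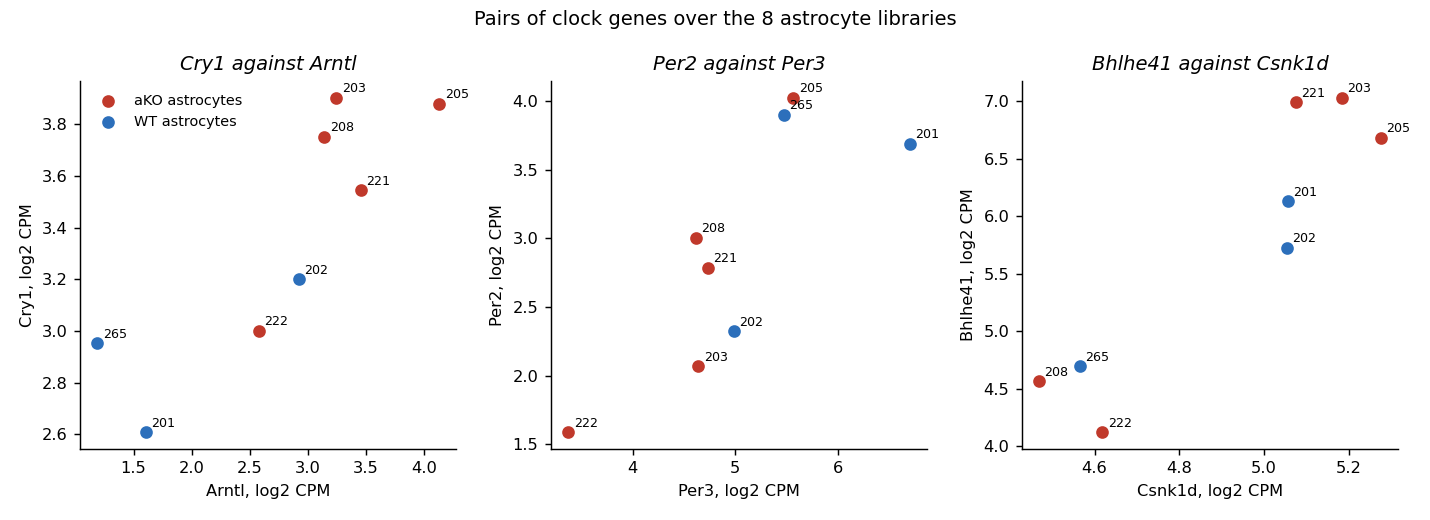
Log2 CPM of 3 pairs of clock genes in the 8 astrocyte libraries (red aKO, blue WT, numbers are animals): Cry1 against Arntl, Per2 against Per3, and Bhlhe41 against Csnk1d. Cry1 and Arntl rise together (r = 0.853), as do Per2 and Per3 (r = 0.809), and in the right panel aKO 208, aKO 222 and WT 265 form a low cluster.

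Some members also moved with the astrocyte content of a library, examined after seeing the data as 10 further relations with the mean log2 CPM of the 12 astrocyte markers. Bhlhe40 had r = 0.930 (exact permutation p = 0.00164, adjusted p = 0.0164) and rho = 0.833 (exact p = 0.0154, adjusted p = 0.0769), with r = 0.823 without the 2 farthest libraries and 0.964 within genotypes. Per1 moved the other way, with r = -0.718 (exact permutation p = 0.0511, adjusted p = 0.128) and rho = -0.905 (exact p = 0.00456, adjusted p = 0.0456), and with r = -0.718 without the 2 farthest libraries. Bhlhe41 was lowest in the 3 libraries with the least marker RNA. With this marker level as a covariate, 0 of 10 members passed between aKO and WT astrocytes by edgeR, Per3 had a log2 fold change of -1.20, Cry1 of 0.70, and that of Bhlhe41 was 0.34.

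**Figure D5:**
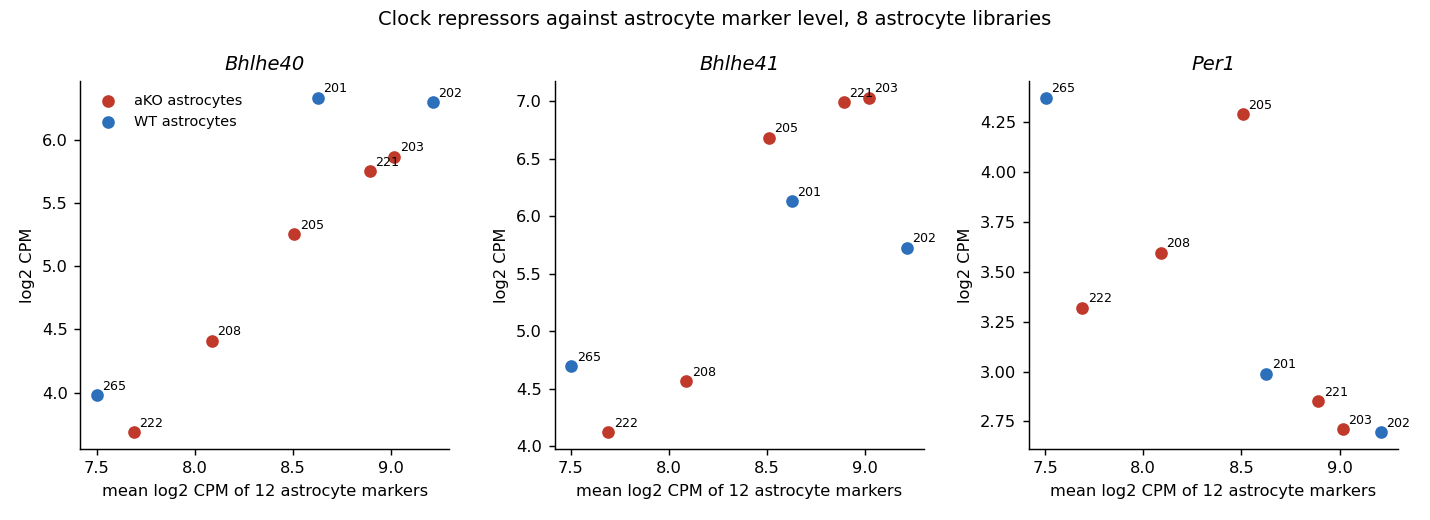
Log2 CPM of Bhlhe40, Bhlhe41 and Per1 against the mean log2 CPM of 12 astrocyte markers in the 8 astrocyte libraries (red aKO, blue WT, numbers are animals). Bhlhe40 is higher with more marker RNA (r = 0.930, which joins a low and a high cluster), and Per1 is lowest in the libraries with the most marker RNA (rho = -0.905). Bhlhe40 and Bhlhe41 are both low in aKO 208, aKO 222 and WT 265, which form a cluster of low marker level.

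Over all 12 libraries, the genes most like each member were sought among 8396 genes with an official symbol and a mean log2 CPM of at least 3. These are the highest of 8396 values, and the points share the fraction difference and library composition, so they are descriptions only. Per1 was closest to Ldb1 (r = 0.976) and Trir (0.969), and Csnk1e to Pmepa1 (0.975) and Itgb5 (0.968). Per2 was closest to Lfng (0.964) and Rab34 (0.961), Cry1 to Prox1 (0.953) and Slc20a2 (0.938), and Cry2 to Fam171a1 (0.967) and Fads6 (0.956). Bhlhe40 was closest to Ndufs1 (0.977) and Timp3 (0.971), and Bhlhe41 to Rab1a (0.977) and Pmpca (0.961). Per3 had the least close neighbours, Por (0.870) and Nwd1 (0.864), with Ciart at Rmdn1 (0.912) and Tmed1 (0.878) and Csnk1d at Lpin2 (0.913) and Casd1 (0.892). No member was among the closest 2 of another. Per2 could not have been, because its mean log2 CPM lay under 3 and it was not among the candidates.

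The positions of the genes bear on what a count can hold, because the labels do not say whether counting used strand. In GENCODE annotation of GRCm38, exons on the opposite strand overlap those of Cry2 by 295 bases (D930015M05Rik), Bhlhe40 by 118 (0610040F04Rik), Csnk1d by 63 (Gm28192), Csnk1e by 267 (Gm16059) and Bhlhe41 by 1280 (Gm43909). If counting ignored strand, reads there could not be told apart. The span of Per3 (chromosome 4, 151003652 to 151044665) overlaps that of Camta1 on the same strand with 0 shared exonic bases, and Per1, Per2 and Cry1 overlap no other annotated gene.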

How the data were processed

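RNA was amplified with a SMARTer kit, per the labels' protocols. The submitters' processing notes name the build GRCm38 and the tools featureCounts 1.4.6-p5, Subread, STAR 2.5.1a and bcl2fastq. The sources used here do not give the annotation release, the use of strand or the treatment of multiply matching reads. The deposited files hold raw read counts per Ensembl gene, with the authors' CPM (count over the library total) and RPKM (CPM per kilobase of exon length), and both relations were checked against the deposited counts. Deposited RPKM served only to compare levels between genes.

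Tests on the counts used edgeR 4.0.16 under R 4.3.3 (quasi-likelihood test, robust dispersion, TMM, filterByExpr with minimum count 10 and minimum total 15), two-sided, with Benjamini-Hochberg adjustment over all genes tested and a threshold of 0.05. Standard errors are the log2 fold change over the square root of F. Astrocyte genotypes were compared in the 8 astrocyte libraries, and the other comparisons in a fit of 4 groups to 12 libraries, with genotypes weighted equally between fractions. Log2 CPM for correlations used a prior count of 2. The fits were run on simulated counts with known fold changes, drawn independently for each library at a single fixed dispersion. Those counts had no shared animals, so they check the working of the fits and not the spread of these data. The number in a title was taken as the animal, so libraries of a group are separate animals. Same-numbered libraries are fractions of 1 brain, which is the source of the pairing. For animals 201, 202, 203 and 205, the correlation over 8396 genes of their deviations from group means was 0.0176, 0.598, 0.170 and 0.600. With 2 flowthrough libraries per group, their deviations mirror each other, so each r only changes sign with the other animal. Astrocyte WT 265 had r = 0.501 with flowthrough 201, and astrocyte aKO 208 had 0.291 with flowthrough 203. These values therefore cannot check the pairing, which rests on the numbers in the titles.

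Named were all 10 members and Arntl in every comparison, other clock genes of the lists past the threshold or with the 2 smallest p of a list, and the 2 genes most like each member. The members, clock gene lists and marker lists were chosen with earlier results of these data known. Alternatives were DESeq2 1.42.0 and its size factors in edgeR, limma 3.58.1 voom with sample weights, an unfiltered fit, leaving out libraries, counting library 202 as aKO, a joint fit of all libraries, a block for the animal and, added after seeing the data, an astrocyte marker covariate.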

Additional observations from a re-analysis of the deposited data

How the results depend on the processing

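The 10 repressor genes gave 0 calls between genotypes in either fraction, and 0 for the interaction, under every alternative run. Counting 202 as aKO changed the label of its astrocyte library only, so flowthrough was not compared with 202 as aKO. Between fractions, 4 members and 3517 genes passed in all 12 libraries, against 7 and 5951 in the 8 paired libraries with the replicate block for the animal, and 5 and 3562 in those 8 without it. Leaving out single libraries gave 1 to 5 members and 1691 to 4107 genes. The 1 member was left without flowthrough WT 201 (1691 genes), and 2 members without flowthrough aKO 203 or aKO 205 (2136 genes without aKO 205). Genes called between aKO and WT astrocytes, 5, became 8 without a count filter, 15 with DESeq2, 0 with library 202 as aKO, 3 without aKO 222 and WT 265, 1 with all libraries in 1 fit, and 0 to 5 leaving out single libraries (0 without WT 201, 2 without aKO 205, 3 without WT 265). In flowthrough, 0 became 45 without a filter, 1 with DESeq2, and 0 to 1 leaving out libraries (1 without flowthrough WT 201). For the interaction, 0 became 40 without a filter, 1 without aKO 221 and 222 (the libraries with high Xist), and 1 in the 8 paired libraries with the replicate block and 1 without it. Correlated pairs, 0, became 2 on deviations from genotype means, permuting within genotypes. They were Cry2 with Arntl (r = 0.813) and Bhlhe40 with Bhlhe41 (r = 0.876, exact permutation adjusted p = 0.0382 each). Before adjustment the exact permutation p was 0.00139 for each, out of 720 pairings within genotypes. With genotype means kept in, r was 0.700 and 0.790 over the 8 astrocyte libraries. It fell to 0.189 for Cry2 with Arntl and 0.509 for Bhlhe40 with Bhlhe41 without the 2 farthest libraries.

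Some log2 fold changes changed sign. In astrocytes, Per1 became 0.030 with voom, 0.089 without aKO 221 and 222, 0.71 without aKO 222 and WT 265 and 0.091 with the marker covariate, and Csnk1e 0.052, 0.19 and 0.31 under the first 3 of these. Per2 became 0.040 without aKO 222 and WT 265. Leaving out single libraries, Per1 ran from -0.42 to 0.68, Cry2 from -0.021 to 0.34, Csnk1d from -0.048 to 0.16 and Csnk1e from -0.14 to 0.22. In flowthrough, Bhlhe41 became 0.0050 with DESeq2's size factors and 0.0022 with DESeq2, and single libraries moved Per2 from -0.034 to 1.53, Cry2 from -0.55 to 0.34, Bhlhe41 from -1.06 to 0.56 and Csnk1d from -0.22 to 0.28. For the interaction, Csnk1d became 0.012 without a filter, 0.033 with only astrocyte library 202 as aKO, 0.15 with the replicate block and 0.13 without it. Cry1 became 0.0087 with voom, 0.072 without aKO 221 and 222, 0.073 without aKO 222 and WT 265, 0.24 with the block and 0.20 without it, and Per3 0.17 without aKO 221 and 222, 0.43 with the block and 0.23 without it. Single libraries moved Per3 from -0.40 to 0.56, Cry1 from -0.26 to 0.17, Csnk1d from -0.22 to 0.28, Cry2 from -0.10 to 0.81 and Bhlhe40 from -0.56 to 1.24. The cause of these changes was not tested. Between fractions no member changed sign under any alternative run. Every repressor gene had at least 58 counts in each library.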
